A study of Mus musculus with 36 samples.

Results

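This comparison set the livers of mice under chronic intermittent hypoxia (IH) in the active phase, at ZT16, against livers of such mice in the rest phase, at ZT4 (ZT, hours after lights on). It holds the 3 libraries labelled IH ZT4 and the 3 labelled IH ZT16, 6 of the 36 libraries of the series, and describes the 13215 genes, of 24066 symbols listed on 1 row, whose mean over all 36 libraries was at least 0.1 FPKM (fragments scaled to transcript length and to the size of the library). All mice were male C57BL/6JRj without an engineered allele, 16 weeks old, in a 12:12-h light-dark cycle with chow at will, and each library came from the liver of 1 mouse. For 4 weeks, from ZT0 to ZT8 of each day, the IH mice breathed air that cycled 60 times per hour between 5% and 21% inspired oxygen (FiO2). The mice at ZT4 were therefore killed amid the hypoxic hours at rest, and the mice at ZT16 in room air while active, so that clock time, feeding and the state of the air cannot be told apart within IH. Normoxic control mice of the same strain, sex and age received matched cycles of air, and their 3 libraries at ZT4 and 3 at ZT16 give the same contrast with no hypoxia at either time. Differences are given as ZT16 minus ZT4 on the log2(FPKM + 1) scale, which understates changes of genes of low expression, with n = 3 mice per group, and a fold is a ratio of mean FPKM.

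In the 6 libraries the summed FPKM was 540095 to 569502 and 15712 to 16188 symbols were above 0. The steps between low values placed their relative depth between 1.00 and 1.19 times that of mouse 1 at ZT4, and the absolute number of fragments is not known. Replicates correlated by 0.990 to 0.993 across genes, and the median SD between mice was 0.077 at ZT4 and 0.087 at ZT16 on the log2 scale. The hepatocyte markers Alb, Apoa1, Ttr, Hnf4a and Fga summed to 50830 to 53970 FPKM at ZT4 and 43820 to 50230 FPKM at ZT16, so that the genes that define liver tissue were high in every library, and Apoa1 and Fga were lower and Hnf4a higher at ZT16. The sums of Kupffer cell, sinusoidal endothelial, stellate, erythroid and skeletal muscle markers overlapped between the times. Those of cholangiocytes (37.1 to 50.8 against 26.5 to 33.5 FPKM), lymphocytes (0.837 to 2.00 against 0.396 to 0.690 FPKM) and neutrophils (0.672 to 1.74 against 0.338 to 0.362 FPKM) did not overlap and were lower at ZT16, as were the adipocyte sum (5.05 to 5.59 against 2.11 to 2.64 FPKM), which was nearly all Adrb3, and the pancreatic acinar sum (0.429 to 1.12 against 0.153 to 0.371 FPKM), which was nearly all Cela2a. The hepatocyte sums did not overlap either. Of the 48 markers of these other cell types found in the tables, 0 were called higher at ZT16 and 12 lower. Not all 48 passed the filter. Those tested included 4 of 6 lymphocyte, 1 of 6 acinar, 1 of 4 adipocyte and 1 of 4 skeletal muscle markers. The share lower among tested markers was therefore above that of 12 in 48. Of all genes tested, 10.8% were called higher and 21.9% lower. Cela3b, Prss2, Cpa1, Ctrb1 and Ckm were at 0 in all 6 libraries, and the part of these shifts in the results was not tested. In bulk tissue, fewer cells of a type and less RNA per cell cannot be told apart.

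The liver clock is a transcriptional loop. BMAL1 (Arntl) with CLOCK or NPAS2 drives the Per and Cry genes and the nuclear receptors REV-ERBα and β (Nr1d1, Nr1d2), PER and CRY proteins then repress BMAL1-CLOCK, and REV-ERBs and RORs compete at the promoter of Arntl and of many metabolic genes. In night-active rodents this loop and the nightly feeding together set when the liver makes fat, glycogen, bile acids and heat shock proteins.

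Between ZT4 and ZT16 in IH, 1430 genes rose (10.8% of those tested) and 2891 fell (21.9%) at a Benjamini-Hochberg adjusted p of 0.05 in limma's moderated test, and 5920 had an unadjusted p under 0.05. The 3 values at ZT16 lay wholly above or below the 3 at ZT4 for 6503 genes (49.2%). Most differences were small: the quartiles over all genes were -0.21 and 0.081 around a median of -0.058, and 116 of the genes that rose and 115 of those that fell changed by 1 or more on the log2 scale. The preponderance of lower calls depended on the scaling. With the libraries scaled by the median of ratios, 2209 genes were higher and 1960 lower, and with quantile normalization 2028 and 2095, with the median of all genes moved up by 0.058 and 0.056. Without mouse 2 at ZT4, 943 genes were called higher and 1780 lower. Of the 195 genes picked by the rule for naming, 91 were higher, 88 lower and 16 not called, the groups overlapped for 1 of those called (Acss2, for acetyl-CoA synthetase), and 35 lost their call in at least 1 of the 6 fits that left out 1 library. Values are given in the order of mice 1, 2 and 3 of each time, which are different animals at each time. The counts within gene lists below stand against the shares of all genes, 10.8% higher and 21.9% lower.

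Of the 12 core clock genes, 4 rose and 2 fell, and the median difference was 0.41 against -0.058 over all genes. Nr1d1 (chr11:98767932-98775333), the gene of REV-ERBα, had 55.0, 54.6 and 55.6 FPKM at ZT4 and 1.24, 1.36 and 1.49 FPKM at ZT16. It fell 40.3-fold, by a log2 difference of -4.57 ± 0.056 (SE, adjusted p 2.42e-07), with a spread within each time far below the gap between them. The Nr1d1 locus overlaps the end of Thra on the opposite strand, and whether strand was used in the authors' quantification is not given in the sources used here. Nr1d2, its paralogue, had 11.4, 14.2 and 14.5 FPKM at ZT4 and 4.78, 5.51 and 4.42 FPKM at ZT16 and fell 2.72-fold (-1.28 ± 0.11, adjusted p 0.000677). The repressors of the loop lay the other way round. Per2 (chr1:91415982-91459324) had 0.884, 1.90 and 2.45 FPKM at ZT4 and 13.9, 11.1 and 13.6 FPKM at ZT16, a 7.37-fold rise (2.38 ± 0.22, adjusted p 0.000792). Cry1 (chr10:85131700-85185064) had 2.80, 2.07 and 2.32 FPKM at ZT4 and 10.8, 12.4 and 15.9 FPKM at ZT16 and rose 5.43-fold (2.04 ± 0.14, adjusted p 0.000403). For each of these 4 genes no mouse of one time came near the values of the other. Per3 had 0.691, 1.51 and 1.98 FPKM at ZT4 and 2.70, 2.74 and 2.83 FPKM at ZT16 and rose 1.98-fold (0.69 ± 0.19, adjusted p 0.0334), but was not called in 4 of the 6 fits that left out 1 library, in which its adjusted p ranged from 0.0161 to 0.0855.

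The promoters of 3 of these genes are shown, from 250 bases before to 50 bases after the transcription start in RefSeq (GRCm38.p6), since they are the members at either end of the loop and carry, or lack, the letters through which clock factors bind. Capitals mark an E-box (CACGTG, bound by BMAL1-CLOCK), a D-box (TTATGTAA, bound by DBP, TEF, HLF and the repressor NFIL3) or the core of a cyclic AMP response element (CRE core, TGACG), searched on both strands. Nr1d1 (chr11:98775328-98775627, minus strand), Cry1 (chr10:85185005-85185304, minus strand) and Per3 (chr4:151044616-151044915, minus strand) read as follows.
Nr1d1: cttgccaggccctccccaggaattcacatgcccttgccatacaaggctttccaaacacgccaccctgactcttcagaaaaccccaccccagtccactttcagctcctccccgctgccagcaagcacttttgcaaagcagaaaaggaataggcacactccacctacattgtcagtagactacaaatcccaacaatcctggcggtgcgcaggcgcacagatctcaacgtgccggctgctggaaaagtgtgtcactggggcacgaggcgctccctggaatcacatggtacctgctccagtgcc
Cry1: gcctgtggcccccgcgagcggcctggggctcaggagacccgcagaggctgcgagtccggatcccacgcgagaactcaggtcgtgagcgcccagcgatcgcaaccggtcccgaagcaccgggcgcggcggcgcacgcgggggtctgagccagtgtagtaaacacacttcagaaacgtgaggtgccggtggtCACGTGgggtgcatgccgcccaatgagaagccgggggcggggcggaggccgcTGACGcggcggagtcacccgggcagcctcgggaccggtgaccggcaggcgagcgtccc
Per3: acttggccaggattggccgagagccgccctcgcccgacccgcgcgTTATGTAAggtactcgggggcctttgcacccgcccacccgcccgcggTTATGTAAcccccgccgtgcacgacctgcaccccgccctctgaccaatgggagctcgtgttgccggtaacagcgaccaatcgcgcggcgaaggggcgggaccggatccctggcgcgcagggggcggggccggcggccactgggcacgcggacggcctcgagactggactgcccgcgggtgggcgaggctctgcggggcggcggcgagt
Cry1 held 1 E-box, whose first base lay 60 bases before the start, and 1 CRE core 8 bases before it. Per3 held 2 D-boxes, 205 and 158 bases before the start. The Nr1d1 window held none of these letters. Of all 32851 promoter windows, 7.15% held an E-box, 0.938% a D-box and 20.8% a CRE core. Among the tested genes with a window the E-box shares were 13.0% for genes that rose, 12.6% for genes that fell and 11.7% for all 9981. In the same order the CRE core shares were 35.8%, 34.5% and 34.7%, and the D-box shares 1.47%, 0.587% and 0.802%.

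The other 6 core genes were not called. Arntl, the gene of BMAL1, had 6.75, 2.78 and 2.08 FPKM at ZT4 and 5.79, 5.60 and 7.19 FPKM at ZT16 (adjusted p 0.151), and its overlap came from mouse 1 at ZT4. The same mouse had the lowest Per1, Per2 and Per3 and the highest Npas2 of the 3 at ZT4. Npas2 had 1.34, 0.393 and 0.209 FPKM at ZT4 and 0.0524, 0.0555 and 0.0942 FPKM at ZT16 (adjusted p 0.0945), with no overlap between the times. Per1 had 1.88, 3.26 and 7.19 FPKM at ZT4 and 4.31, 8.01 and 7.62 FPKM at ZT16 (adjusted p 0.221). Without mouse 1 at ZT4, 5 core genes were called higher and 3 lower, and Arntl and Npas2 then differed by 1.07 and -0.28. Without mouse 3 at ZT4 the counts were also 5 higher and 3 lower. Clock, Cry2 and Rora differed by 0.095, 0.059 and 0.15, with adjusted p of 0.339, 0.652 and 0.258, and their values overlapped.

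Of the 8 clock output genes, transcription factors and other direct targets that pass the rhythm on, 3 rose and 2 fell, with a median of 0.30. Dbp (chr7:45705088-45710203), which activates through D-boxes, had 8.78, 30.5 and 37.1 FPKM at ZT4 and 2.33, 2.47 and 1.79 FPKM at ZT16 and fell 11.6-fold (-2.84 ± 0.48, adjusted p 0.00577). Its ZT4 values spread widely, again with mouse 1 apart, yet all lay above those at ZT16. Nfil3, the repressor at the same sites, had 9.97, 5.72 and 6.51 FPKM at ZT4 and 13.1, 17.8 and 21.4 FPKM at ZT16 and rose 2.35-fold (1.14 ± 0.23, adjusted p 0.0103). Usp2 (chr9:44067021-44095627), a ubiquitin protease, had 0.639, 1.70 and 2.86 FPKM at ZT4 and 10.7, 11.3 and 10.4 FPKM at ZT16 and rose 6.24-fold (adjusted p 0.00225). Ciart, a repressor of BMAL1-CLOCK, had 0.331, 1.26 and 2.03 FPKM at ZT4 and 3.83, 3.06 and 2.89 FPKM at ZT16 (1.02 ± 0.28, adjusted p 0.0316), and was not called in 4 of 6 fits without 1 library, with an adjusted p of 0.0141 to 0.0864. Bhlhe41, the gene of the repressor DEC2, had 0.607, 0.916 and 0.656 FPKM at ZT4 and 0.272, 0.221 and 0.158 FPKM at ZT16 and fell (-0.50 ± 0.076, adjusted p 0.00396). Tef, Hlf and Bhlhe40, with differences of 0.30, 0.30 and -0.46, were not called (adjusted p of 0.29, 0.0948 and 0.0643).

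**Figure D1:**
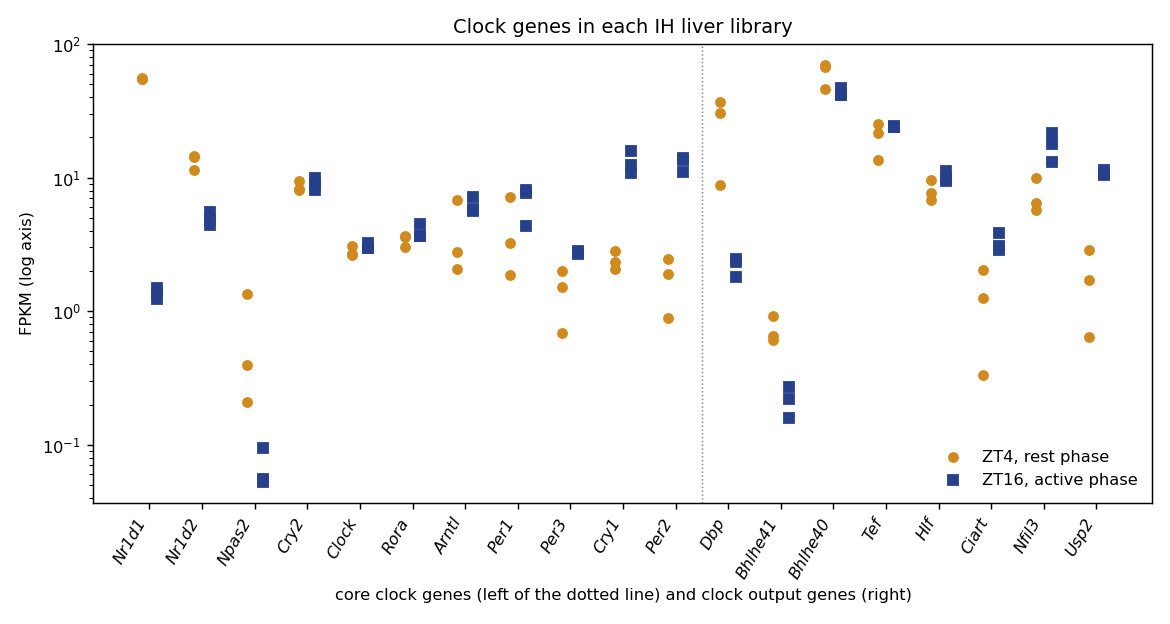
FPKM (log axis) of 11 core clock genes and the 8 clock output genes in each of the 6 IH libraries, with circles for the 3 mice at ZT4 and squares for the 3 at ZT16, ordered within each list by the difference. Nr1d1, Nr1d2, Dbp and Bhlhe41 lay lower at ZT16 in all 3 mice, and Cry1, Per2, Nfil3 and Usp2 higher.

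The gene with the largest fall on this scale was Rgs16 (chr1:153740349-153745468), a regulator of G protein signalling that speeds the shut-off of Gi- and Gq-coupled receptors and whose liver expression is known to follow the feeding cycle. It had 86.8, 77.5 and 78.0 FPKM at ZT4 and 2.55, 1.74 and 1.65 FPKM at ZT16. This was a 40.7-fold fall (-4.79 ± 0.12, adjusted p 9.31e-06), as steep as that of Nr1d1, and the values of the times lay far apart. Of the other 8 tested members of the RGS family only Rgs12 was called, with 1.04, 1.55 and 1.26 FPKM at ZT4 and 0.850, 0.708 and 0.634 FPKM at ZT16 (-0.39 ± 0.092, adjusted p 0.0185), and not in 2 of 6 fits without 1 library (adjusted p 0.0156 to 0.0605). The family median was -0.15. The Rgs16 promoter (chr1:153740103-153740402, plus strand), shown because its gene had the steepest fall, held none of the 7 motifs searched, which besides the 3 above were the full CRE (TGACGTCA, which contains a CRE core), the core of the ROR and REV-ERB element (RORE, TAGGTCA), a sterol response element (SRE, TCACNCCAC) and the pair of heat shock units given with Hsph1. Of all windows 1.79% held a CRE, 2.61% a RORE core and 1.24% an SRE.
Rgs16: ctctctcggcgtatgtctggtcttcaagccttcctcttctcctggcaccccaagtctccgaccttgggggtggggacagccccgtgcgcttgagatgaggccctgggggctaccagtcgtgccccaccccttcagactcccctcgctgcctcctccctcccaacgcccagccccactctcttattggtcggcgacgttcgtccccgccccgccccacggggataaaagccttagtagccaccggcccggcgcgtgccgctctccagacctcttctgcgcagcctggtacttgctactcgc

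The 12 genes with the largest rise and the 12 with the largest fall were taken among called genes with non-overlapping groups and a mean of at least 1 FPKM, so that their differences are a description. The rise was led by Tsku (chr7:98350668-98361328), the secreted protein tsukushi, with 3.30, 4.92 and 9.67 FPKM at ZT4 and 142, 85.1 and 64.1 FPKM at ZT16, a 16.3-fold difference. Cml5, an N-acetyltransferase-like gene, had 7.23, 5.42 and 2.88 FPKM at ZT4 and 56.0, 55.3 and 60.4 FPKM at ZT16. Thrsp (chr7:97412938-97417730), Spot 14, which acts in fat synthesis, had 152, 168 and 149.8 FPKM at ZT4 and 1124, 1030.0 and 1743 FPKM at ZT16, and no gene of this set was higher in level. Alas1 (chr9:106233455-106248654), the rate-limiting enzyme of haem synthesis, had 18.0, 52.6 and 16.4 FPKM at ZT4 and 169, 287 and 175 FPKM at ZT16. At each time 1 mouse was well above the other two for Alas1, and the same 2 libraries were highest for Serpina4-ps1, a pseudogene, with 29.2, 94.9 and 38.1 FPKM at ZT4 and 184, 428 and 137 FPKM at ZT16. The call of Serpina4-ps1 was lost in 3 of 6 fits without 1 library (adjusted p 0.0157 to 0.0646). Myc, the growth-promoting factor, had 1.46, 2.67 and 0.971 FPKM at ZT4 and 14.2, 8.16 and 17.4 FPKM at ZT16, and Col27a1, a fibrillar collagen, had 5.04, 5.44 and 4.72 FPKM at ZT4 and 24.9, 28.8 and 28.0 FPKM at ZT16. The rest were Per2 and the chaperone genes Hsph1, Hspa1b, Hsp90aa1 and Creld2.

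Below Rgs16, Nr1d1 and Dbp, the falls included Trib3 (chr2:152337422-152344032), a pseudokinase induced by the amino acid and endoplasmic reticulum (ER) stress factor ATF4, with 8.23, 6.38 and 10.1 FPKM at ZT4 and 0.824, 0.619 and 0.863 FPKM at ZT16. Klf10 (chr15:38291463-38300706), a TGFβ-inducible zinc finger factor, had 35.5, 26.3 and 15.0 FPKM at ZT4 and 4.04, 4.96 and 3.39 FPKM at ZT16. Casp6 (chr3:129901425-129914103), an executioner caspase, had 21.4, 22.1 and 21.3 FPKM at ZT4 and 4.92, 5.06 and 4.70 FPKM at ZT16, and Slc8b1, the mitochondrial sodium-calcium exchanger, had 25.6, 23.4 and 24.8 FPKM at ZT4 and 5.21, 6.11 and 5.52 FPKM at ZT16. Both fell by about the same factor, with mice of one time within a narrow range. Gpcpd1, a glycerophosphocholine phosphodiesterase, had 38.5, 32.1 and 25.6 FPKM at ZT4 and 6.11, 8.56 and 6.60 FPKM at ZT16. Tymp, thymidine phosphorylase, had 40.6, 34.9 and 31.3 FPKM at ZT4 and 8.56, 9.08 and 8.95 FPKM at ZT16, and Fbxo21, an F-box protein of a ubiquitin ligase, had 41.7, 40.2 and 43.6 FPKM at ZT4 and 12.3, 10.3 and 7.00 FPKM at ZT16. Mt1, a metallothionein that binds zinc and is induced by glucocorticoids, had 25.1, 35.5 and 40.8 FPKM at ZT4 and 7.71, 6.74 and 8.97 FPKM at ZT16. Arrdc3, an arrestin-like adaptor, had 49.0, 55.3 and 43.6 FPKM at ZT4 and 27.2, 5.26 and 6.41 FPKM at ZT16, with mouse 1 at ZT16 apart from the other two, and its call was lost in 4 of 6 fits without 1 library (adjusted p 0.000541 to 0.0666).

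All 17 listed heat shock chaperones rose. Against 10.8% of all genes called higher, the share here was the whole list, the groups overlapped for 0 of the 17, and the median difference was 1.32. The count was 17 under each scaling and each left-out library. These proteins refold or hold damaged proteins, and their genes are induced by HSF1, which follows body temperature and feeding over the day. Hsph1 (chr5:149614287-149636376), the nucleotide exchange factor HSP105 for HSP70, had 2.85, 3.10 and 3.98 FPKM at ZT4 and 30.8, 29.4 and 28.7 FPKM at ZT16 and rose 8.95-fold (2.84 ± 0.10, adjusted p 3.61e-05). Hsp90aa1 (chr12:110690605-110702728), the inducible HSP90, had 30.3, 28.6 and 27.0 FPKM at ZT4 and 141, 149 and 133 FPKM at ZT16, a 4.92-fold rise (2.26 ± 0.064, adjusted p 1.42e-05). Hspa1b (chr17:34956436-34959238), inducible HSP70, had 2.55, 1.81 and 2.95 FPKM at ZT4 and 12.5, 21.1 and 14.1 FPKM at ZT16 and rose 6.53-fold (2.28 ± 0.20, adjusted p 0.000779). Reads of Hspa1b and its near-identical copy Hspa1a may be split between them, and Hspa1a rose too, by 1.64. The immunophilin and HSP90 partner Fkbp4 had 47.1, 46.1 and 46.1 FPKM at ZT4 and 116, 108 and 116 FPKM at ZT16 (1.27 ± 0.046, adjusted p 4.26e-05). The smallest rises, 0.40 and 0.60, were those of Hspd1 and Hspe1, the chaperonins of mitochondria.

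The promoter of Hsph1 is shown as the chaperone gene with the largest rise (chr5:149636287-149636586, minus strand). Capitals mark pairs of heat shock element units (TTCNNGAA) and the E-box.
Hsph1: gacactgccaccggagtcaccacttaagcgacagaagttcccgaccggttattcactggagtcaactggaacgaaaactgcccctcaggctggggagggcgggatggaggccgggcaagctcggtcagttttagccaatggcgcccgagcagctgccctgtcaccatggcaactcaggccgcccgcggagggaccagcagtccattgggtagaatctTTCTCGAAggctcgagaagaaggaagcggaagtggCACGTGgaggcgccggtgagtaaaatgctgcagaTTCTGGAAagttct
It held 2 such pairs, at bases -33 and 36 from the start, and an E-box at base 2. Counted from a second RefSeq start of Hsph1, the pairs lie at bases -54 and 15 and the E-box at base -19. Of the 14 listed chaperone genes with a window, 4 (28.6%) held a pair, against 8.52% of all windows, 9.74% of genes that rose and 7.76% of genes that fell.

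The cold-inducible RNA-binding protein gene Cirbp (chr10:80165985-80172786), which is expressed when body temperature is low, moved the other way. It had 25.5, 28.5 and 20.1 FPKM at ZT4 and 6.31, 6.87 and 6.55 FPKM at ZT16 and fell 3.75-fold (-1.75 ± 0.12, adjusted p 0.000361). Its relative Rbm3 had a difference of 0.14 and was not called.

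The unfolded protein response adjusts the folding capacity of the ER to the load of secreted protein. Of the 23 listed genes of the unfolded protein response, 18 rose and 1, Trib3, fell, with a median of 0.61. Hspa5 (chr2:34771970-34777547), the ER HSP70 known as BiP, had 116, 134 and 139 FPKM at ZT4 and 552, 339 and 318 FPKM at ZT16 and rose 3.11-fold (1.59 ± 0.21, adjusted p 0.00237). Hyou1, its exchange factor, had 13.6, 16.5 and 15.5 FPKM at ZT4 and 87.6, 49.0 and 45.1 FPKM at ZT16 and rose 3.98-fold (1.86 ± 0.24, adjusted p 0.00223). Creld2 (chr15:88819646-88826683), an ER-stress-induced disulphide isomerase, had 7.32, 10.0 and 11.3 FPKM at ZT4 and 92.1, 41.1 and 39.8 FPKM at ZT16 and rose 6.03-fold (2.38 ± 0.33, adjusted p 0.00292). Dnajb11, a co-chaperone of BiP, had 27.3, 31.6 and 33.8 FPKM at ZT4 and 68.4, 57.1 and 52.5 FPKM at ZT16 (0.92 ± 0.12, adjusted p 0.00216). In all 4 genes mouse 1 at ZT16 was the highest, above the other two, and without that library 17 of the 23 were still called higher. The count fell to 12, the lowest of the 6 such fits, without mouse 1 at ZT4. The factors Atf4, Atf6 and Xbp1, which sit above these genes, had differences of 0.14, -0.040 and 0.28 and were not called.

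**Figure D2:**
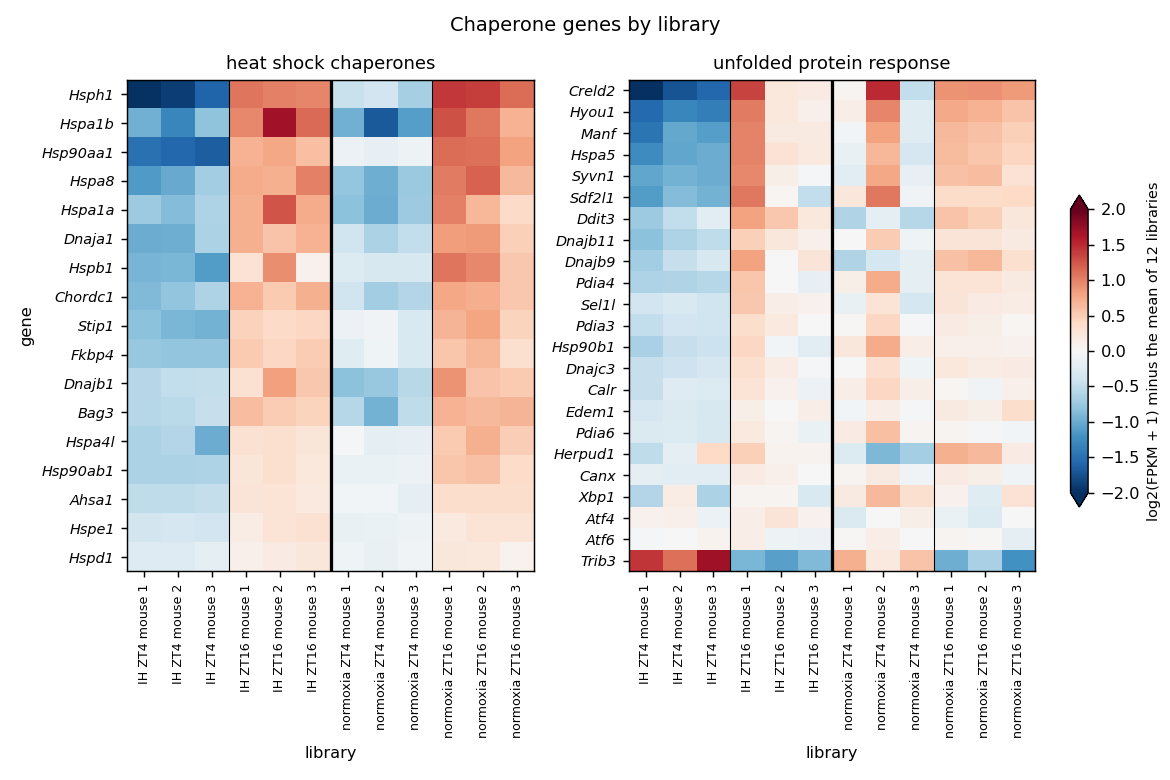
Heat map of the 17 heat shock chaperone genes and the 23 unfolded protein response genes in the 12 libraries at ZT4 and ZT16, as log2(FPKM + 1) minus the gene's mean over the 12, with red above and blue below and IH left of the thick line. The 3 IH libraries at ZT4 are blue for all 17 heat shock genes and the 3 at ZT16 red or near white, and mouse 2 of normoxia at ZT4 stands out in red among the unfolded protein response genes.

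Glycolysis in liver turns meal sugar into precursors of fat. Of 15 genes of glycolysis and glucose entry, 10 rose and 2 fell, with a median of 0.43. The number lower was 1 without mouse 2 or 3 at ZT4 or mouse 1 or 2 at ZT16. The enolase gene Eno1 had 189.6, 180.4 and 200.2 FPKM at ZT4 and 283, 279.8 and 289.9 FPKM at ZT16 (0.58 ± 0.053, adjusted p 0.000792), and Pklr, the liver pyruvate kinase, rose by 0.91. The glucose transporter gene Slc2a2 fell by a narrow margin (-0.28 ± 0.082, adjusted p 0.0387) and lost its call in 4 of 6 fits without 1 library (adjusted p 0.0148 to 0.122). Ldha, lactate dehydrogenase, had 337, 289 and 325 FPKM at ZT4 and 288, 304 and 296 FPKM at ZT16 and was not called (adjusted p 0.304).

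Of 12 genes of gluconeogenesis 1 rose and 3 fell, shares near the background of 10.8% and 21.9%. The number lower was 1 when mouse 2 at ZT16 or any single mouse at ZT4 was left out, and the number higher 2 without mouse 3 at ZT4 or mouse 1 or 2 at ZT16. Fbp1, fructose bisphosphatase, had 543, 516 and 561 FPKM at ZT4 and 707, 687 and 798 FPKM at ZT16 and rose (0.43 ± 0.072, adjusted p 0.00556). G6pc, glucose-6-phosphatase, the last step of glucose release, had 459, 357 and 285 FPKM at ZT4 and 80.8, 207 and 209 FPKM at ZT16 and fell (-1.24 ± 0.38, adjusted p 0.0447), but not in 4 of 6 fits without 1 library (adjusted p 0.0306 to 0.125) nor under median of ratios scaling. Pck1, the first committed step, had 734, 485 and 1011 FPKM at ZT4 and 114, 485 and 519 FPKM at ZT16, and with mouse 1 at ZT16 far below the others it was not called (adjusted p 0.16). Of 16 glycogen genes, 4 rose (25.0%) and 6 fell (37.5%), with a median of -0.25. In every fit without 1 library fewer rose, 3 without mouse 1 at ZT4, 1 without mouse 2 at ZT4 and 2 without each of the others. Ppp1r3b (chr8:35375739-35388139), the subunit that brings phosphatase to glycogen and activates its synthesis, had 56.1, 42.8 and 39.5 FPKM at ZT4 and 139, 108 and 120.4 FPKM at ZT16 and rose 2.65-fold (1.40 ± 0.14, adjusted p 0.00116). Phka2, a subunit of phosphorylase kinase, which activates breakdown, had 5.71, 5.82 and 4.96 FPKM at ZT4 and 2.82, 2.76 and 2.51 FPKM at ZT16 and fell 2.04-fold (-0.81 ± 0.075, adjusted p 0.000819). The enzymes themselves differed by less. Liver glycogen synthase, Gys2, had 49.1, 67.1 and 72.5 FPKM at ZT4 and 82.1, 72.3 and 77.9 FPKM at ZT16 (adjusted p 0.131), and the phosphorylase gene Pygl had 176, 167 and 169 FPKM at ZT4 and 199, 193 and 211 FPKM at ZT16 (0.24 ± 0.051, adjusted p 0.0142). Pygl was not called without mouse 2 at ZT4 (adjusted p 0.0623, the highest over the 6 fits, the lowest being 0.0269).

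The liver makes fat from sugar when fed. Of 20 genes of fatty acid and triglyceride synthesis, 7 rose and 2 fell, with a median of 0.48. The number lower was 0 without mouse 1 or mouse 2 of either time. Srebf1, the gene of the insulin-driven factor SREBP1, had 55.6, 56.2 and 57.6 FPKM at ZT4 and 123, 84.4 and 120.1 FPKM at ZT16 and rose 1.93-fold (0.92 ± 0.14, adjusted p 0.00388). Fasn (chr11:120805846-120824547), fatty acid synthase, had 74.4, 63.2 and 49.1 FPKM at ZT4 and 177, 105 and 183 FPKM at ZT16 and rose 2.49-fold (1.28 ± 0.24, adjusted p 0.00854). The acyltransferase gene Agpat2 had 111, 108 and 98.3 FPKM at ZT4 and 189, 178 and 205 FPKM at ZT16 (0.84 ± 0.072, adjusted p 0.000706), and Elovl6, which lengthens palmitate, rose by 1.45. Elovl5, an elongase of polyunsaturated fatty acids, had 347, 265 and 209 FPKM at ZT4 and 86.2, 96.9 and 188 FPKM at ZT16 and fell (-1.20 ± 0.31, adjusted p 0.0271), though not in 4 of 6 fits without 1 library (adjusted p 0.00698 to 0.0831). Scd1, the desaturase, differed by -0.12 and was not called.

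In cholesterol synthesis 6 of 24 genes rose and 2 fell, and the median was 0.0078. Insig1 (chr5:28071363-28078662), which holds SREBPs in the ER, had 107, 93.9 and 96.7 FPKM at ZT4 and 271, 227 and 214 FPKM at ZT16 and rose 2.39-fold (1.24 ± 0.10, adjusted p 0.00057). Mvd, mevalonate diphosphate decarboxylase, had 11.2, 11.7 and 9.32 FPKM at ZT4 and 26.2, 24.9 and 27.2 FPKM at ZT16 and rose 2.43-fold (1.21 ± 0.086, adjusted p 0.000403). Sqle, squalene epoxidase, rose by 0.51. Nsdhl, a late sterol dehydrogenase, had 49.2, 52.2 and 40.5 FPKM at ZT4 and 27.9, 32.1 and 29.6 FPKM at ZT16 and fell (-0.64 ± 0.10, adjusted p 0.00456), and without mouse 3 at ZT4 7 of the 24 genes were called lower in place of 2, and 1 without mouse 1 or 2 at ZT4.

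Of 13 genes of bile acid synthesis and transport, 3 rose (23.1%) and 6 fell (46.2%), against 10.8% and 21.9% of all genes. Cyp7a1 (chr4:6265612-6275633), the rate-limiting enzyme of bile acid synthesis, had 13.5, 7.29 and 12.0 FPKM at ZT4 and 24.2, 25.9 and 21.4 FPKM at ZT16 and rose 2.19-fold (1.10 ± 0.20, adjusted p 0.00792). Nr0b2, the gene of its repressor SHP, had a difference of -1.43 and fell. So the enzyme gene and that of its repressor lay in opposite directions. The next enzyme of the pathway, Hsd3b7, had 349, 327 and 268 FPKM at ZT4 and 167, 151 and 136 FPKM at ZT16 and fell 2.08-fold (-1.05 ± 0.12, adjusted p 0.00142). Abcb11, the pump that moves bile salts into the canaliculus, had 114, 105 and 91.8 FPKM at ZT4 and 49.6, 53.6 and 55.1 FPKM at ZT16 and fell 1.96-fold (-0.96 ± 0.086, adjusted p 0.000783). Of 20 genes of apolipoproteins and lipoprotein handling, 3 rose (15.0%) and 6 fell (30.0%). The largest falls were of the paired sterol transporters of the canaliculus, Abcg5 and Abcg8, taken up with the control mice. Lipc, hepatic lipase, had 103, 93.3 and 96.9 FPKM at ZT4 and 62.4, 62.2 and 66.6 FPKM at ZT16 and fell (-0.61 ± 0.056, adjusted p 0.000791), and Mttp, which loads lipid onto apolipoprotein B, had 66.8, 62.9 and 65.9 FPKM at ZT4 and 80.7, 75.2 and 78.2 FPKM at ZT16 and rose (0.26 ± 0.048, adjusted p 0.0088).

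Fatty acid oxidation and ketogenesis held 2 rises (7.69%) and 8 falls (30.8%) among 26 genes, against 10.8% and 21.9% of all genes, with a median of -0.067. Median of ratios scaling gave 4 higher and 5 lower. Cpt1a, the carnitine transferase that gates entry into mitochondria, had 81.6, 76.1 and 80.2 FPKM at ZT4 and 49.1, 49.7 and 49.4 FPKM at ZT16 and fell 1.60-fold (-0.67 ± 0.045, adjusted p 0.000334). Bdh1, which makes hydroxybutyrate, fell too (-0.66 ± 0.072, adjusted p 0.0014). Cpt2, the inner partner of Cpt1a, went the other way with 54.2, 48.5 and 49.3 FPKM at ZT4 and 76.3, 69.2 and 71.6 FPKM at ZT16 (0.51 ± 0.062, adjusted p 0.002). Ppara, the gene of the fasting receptor PPARα, had 19.7, 21.4 and 26.1 FPKM at ZT4 and 24.5, 18.1 and 21.7 FPKM at ZT16 and was not called (adjusted p 0.754).

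Amino acids from food are either used or broken down in the liver, with their nitrogen leaving as urea. Of 12 genes of the urea cycle and glutamine, 2 rose (16.7%) and 4 fell (33.3%). Of 26 amino acid catabolic genes 3 rose (11.5%) and 10 fell (38.5%), against 10.8% and 21.9% of all genes. Of the former list 1 rose when any single mouse at ZT4 or mouse 2 or 3 at ZT16 was left out, and 2 fell without mouse 2 or 3 at ZT4 or mouse 3 at ZT16. Of the latter 6 fell without mouse 2 at ZT4. Asl, argininosuccinate lyase, had 216, 209 and 242 FPKM at ZT4 and 407, 455 and 495 FPKM at ZT16 and rose 2.03-fold (1.02 ± 0.088, adjusted p 0.00073). The glutamine transporter gene Slc38a3 had 735, 748 and 660.3 FPKM at ZT4 and 396, 367 and 411 FPKM at ZT16 and fell 1.83-fold (-0.87 ± 0.071, adjusted p 0.000609). Tat, tyrosine aminotransferase, a classic glucocorticoid target, had 421, 296 and 517 FPKM at ZT4 and 658, 891 and 1087 FPKM at ZT16 and rose 2.14-fold (1.10 ± 0.24, adjusted p 0.0154). Agxt, the peroxisomal alanine-glyoxylate aminotransferase, had 196, 191 and 216 FPKM at ZT4 and 101, 78.4 and 84.4 FPKM at ZT16 and fell 2.29-fold (-1.19 ± 0.10, adjusted p 0.000652), and Cbs, which turns homocysteine into cystathionine, had 202, 181 and 176 FPKM at ZT4 and 97.0, 103 and 109 FPKM at ZT16 (-0.85 ± 0.071, adjusted p 0.000652).

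Among 14 NAD genes 4 rose (28.6%) and 5 fell (35.7%), against 10.8% and 21.9% of all genes. Nampt (chr12:32819545-32853349), the clock-controlled, rate-limiting enzyme of NAD salvage, had 6.90, 7.69 and 8.85 FPKM at ZT4 and 19.5, 20.1 and 19.8 FPKM at ZT16 and rose 2.54-fold (1.25 ± 0.083, adjusted p 0.000334). Nmrk1, nicotinamide riboside kinase, had 10.6, 9.91 and 10.3 FPKM at ZT4 and 22.3, 23.7 and 25.5 FPKM at ZT16 (1.14 ± 0.061, adjusted p 0.000196), while Nmnat3, a mitochondrial adenylyltransferase, had 4.30, 3.95 and 3.74 FPKM at ZT4 and 2.02, 1.64 and 1.75 FPKM at ZT16 and fell (-0.83 ± 0.078, adjusted p 0.000836). Of 19 genes of xenobiotic sensing, haem supply and P450 enzymes, 5 rose and 1 fell, the fall being lost without mouse 1 or 2 at ZT4. Beside Alas1, Cyp2b10, the marker target of the sensor CAR, had 7.30, 6.44 and 5.76 FPKM at ZT4 and 23.6, 22.1 and 22.7 FPKM at ZT16 and rose 3.51-fold (1.67 ± 0.081, adjusted p 0.000132). Of 18 antioxidant genes 3 rose (16.7%) and 5 fell (27.8%), with 2 lower without mouse 1 or 2 at ZT4 and 3 without each of the mice at ZT16. Sod2, mitochondrial superoxide dismutase, had 35.9, 35.7 and 37.0 FPKM at ZT4 and 45.9, 47.9 and 48.4 FPKM at ZT16 (0.38 ± 0.044, adjusted p 0.00174), and Nfe2l2, the gene of NRF2 itself, had a difference of -0.39 and fell.

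Autophagy, the digestion of a cell's own parts, is known to be most active in the fasted liver. Of 21 autophagy genes, 10 were called lower and 0 higher, with a median of -0.19, against 21.9% lower over all genes. The number lower was 6 under median of ratios scaling and 8 under quantile normalization, and it was 6 without mouse 1 or 2 at ZT4 or mouse 3 at ZT16. Gabarapl1 (chr6:129533160-129542346), a ubiquitin-like protein of the autophagosome, had 225, 246 and 244 FPKM at ZT4 and 67.6, 80.5 and 65.3 FPKM at ZT16 and fell 3.35-fold (-1.73 ± 0.086, adjusted p 0.000138). Ulk1 (chr5:110784488-110810097), the kinase that starts autophagy, had 21.6, 21.7 and 21.2 FPKM at ZT4 and 6.55, 8.80 and 8.93 FPKM at ZT16 and fell 2.65-fold (-1.32 ± 0.11, adjusted p 0.000609). Map1lc3b, LC3B, had 70.4, 70.6 and 75.4 FPKM at ZT4 and 50.1, 52.7 and 47.0 FPKM at ZT16 (-0.52 ± 0.058, adjusted p 0.00142). Of 38 proteasome subunits, 2 rose (5.26%) and 13 fell (34.2%), with differences over the list from -0.40 (Psmd3) to 0.34 (Psmd5). The number lower was 6 under median of ratios scaling, 6 without mouse 2 of either time and 8 without mouse 3 at ZT4.

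Of 27 ribosome biogenesis genes, 11 rose and 1 fell (median 0.11), and 0 fell without mouse 2 at ZT4. Nop16 and Nolc1, which act in the nucleolus, both rose. Nop16 had 8.90, 9.21 and 9.48 FPKM at ZT4 and 17.1, 19.1 and 16.2 FPKM at ZT16 (0.85 ± 0.070, adjusted p 0.000609). Nolc1 had 5.84, 5.96 and 5.47 FPKM at ZT4 and 10.3, 11.4 and 9.81 FPKM at ZT16 (0.77 ± 0.069, adjusted p 0.000778). Of 79 cytosolic ribosomal proteins 1 rose and 1 fell (median 0.046), and 0 to 7 rose over the 6 fits without 1 library, with 7 without mouse 3 at ZT4, 2 without mouse 1 at ZT16 and 0 without each of the others. Of 76 mitochondrial ribosomal proteins 14 rose and 5 fell (median 0.031). Without mouse 2 at ZT4 8 rose and 2 fell, without mouse 2 at ZT16 9 and 3, and without mouse 3 at ZT16 2 fell. The rises were led by Mrpl34 with 33.4, 32.4 and 37.5 FPKM at ZT4 and 53.4, 51.2 and 54.5 FPKM at ZT16 (0.61 ± 0.064, adjusted p 0.00122). Of 20 aminoacyl-tRNA synthetases 5 rose and 2 fell, with 4 lower without mouse 1 at ZT16 and 1 without mouse 2 or 3 of either time, Cars for cysteine being lowest with 10.8, 10.2 and 10.1 FPKM at ZT4 and 6.87, 6.38 and 6.17 FPKM at ZT16 (-0.60 ± 0.059, adjusted p 0.000995).

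In respiratory complex I 5 of 36 rose and 0 fell (median 0.090), a share of 13.9% higher against 10.8% of all genes, and 0 to 6 rose over the fits without 1 library, with 0 without mouse 1 at ZT4 or mouse 3 at ZT16, 1 without mouse 2 of either time and 3 without mouse 3 at ZT4. In complexes II to V 2 of 44 rose (4.55%) and 3 fell (median 0.097), and in the TCA cycle 3 of 13 rose (23.1%) and 0 fell (median 0.057). For complexes II to V 1 to 5 rose over those fits, with 5 without mouse 3 at ZT4, 4 without mouse 1 at ZT16 and 1 without each of the others. Under median of ratios scaling the numbers that rose were 14, 14 and 5. Fh1, fumarase, had 76.5, 76.1 and 78.9 FPKM at ZT4 and 101, 115 and 116 FPKM at ZT16 (0.51 ± 0.062, adjusted p 0.00197). Cox6a1, of complex IV, had 550.3, 572 and 582 FPKM at ZT4 and 563, 563 and 581 FPKM at ZT16, and Idh3a, of the TCA cycle, 12.3, 12.3 and 13.7 FPKM at ZT4 and 14.8, 13.6 and 13.6 FPKM at ZT16. Neither was called (adjusted p 0.984 and 0.181).

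Hypoxia-inducible factors (HIFs) switch genes on when oxygen is low. Of 22 tested HIF targets 9 rose (40.9%) and 3 fell (13.6%), against 10.8% and 21.9% of all genes, with a median of 0.16. In the normoxic control mice 4 of them rose and 2 fell between the same times, with a median of 0.18. A difference between the conditions was called for 0 of them. P4ha1, a collagen prolyl hydroxylase, had 1.18, 1.17 and 1.49 FPKM at ZT4 and 3.33, 4.55 and 4.59 FPKM at ZT16 and rose 3.25-fold (1.17 ± 0.12, adjusted p 0.00107). Egln1, the oxygen sensor PHD2, had 6.32, 6.15 and 6.13 FPKM at ZT4 and 8.01, 7.72 and 8.08 FPKM at ZT16 (0.31 ± 0.050, adjusted p 0.00497), and Vegfa, the vascular growth factor, had 61.3, 56.9 and 54.4 FPKM at ZT4 and 69.1, 70.9 and 80.0 FPKM at ZT16 (0.34 ± 0.073, adjusted p 0.0133). The falls included Ndrg1, a hypoxia-responsive gene, with 10.1, 7.64 and 5.37 FPKM at ZT4 and 1.60, 1.95 and 1.96 FPKM at ZT16 (-1.58 ± 0.19, adjusted p 0.00188), and Kdm3a, a histone demethylase (-0.55). In normoxia the differences of P4ha1, Ndrg1 and Kdm3a were 1.17, -1.25 and -0.65, each called in the same direction as in IH. That of Egln1 was 0.21 there and not called. Epo and Car9 were listed but did not pass the filter.

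In hormone and stress signalling, 4 of 14 glucocorticoid genes rose and 4 fell, 0 of 19 CREB pathway genes rose and 4 fell, and 2 of 19 genes of the insulin, growth hormone and IGF axis rose and 4 fell. The shares lower were 21.1% in each of the latter lists, next to 21.9% of all genes, and 10.5% of the insulin list were higher, next to 10.8%. Median of ratios scaling gave 3 higher and 2 lower for the CREB pathway and 4 higher and 3 lower for the insulin axis. Over the fits without 1 library, CREB genes were 0 to 2 higher (2 without mouse 1 at ZT4) and 2 to 5 lower (2 without mouse 1 or 2 at ZT4 or mouse 2 at ZT16), insulin axis genes 1 to 3 higher (1 without mouse 3 at ZT4 or mouse 2 at ZT16), and glucocorticoid genes 1 to 4 higher (1 without mouse 1 at ZT4 or mouse 3 at ZT16, 2 without mouse 2 of either time). The CREB pathway carries the glucagon signal of fasting. Its coactivator Crtc2 had 17.1, 17.2 and 15.4 FPKM at ZT4 and 11.7, 11.3 and 10.8 FPKM at ZT16 and fell (-0.52 ± 0.061, adjusted p 0.00182). Prkar1a, an inhibitory regulatory subunit of protein kinase A, had 42.9, 38.8 and 38.5 FPKM at ZT4 and 28.5, 30.1 and 30.4 FPKM at ZT16 (-0.42 ± 0.058, adjusted p 0.00304). Creb1 itself had 1.19, 1.18 and 1.39 FPKM at ZT4 and 1.47, 1.56 and 1.55 FPKM at ZT16, not called (adjusted p 0.0735). Grb14, an inhibitor of the insulin receptor, had 35.5, 40.0 and 39.6 FPKM at ZT4 and 23.6, 24.7 and 24.3 FPKM at ZT16 and fell (-0.64 ± 0.059, adjusted p 0.000792), and Stat5b, which carries the growth hormone signal, had 13.6, 10.7 and 10.4 FPKM at ZT4 and 7.02, 6.61 and 7.50 FPKM at ZT16 (-0.64 ± 0.10, adjusted p 0.00499). Of 18 immediate early genes 3 rose (16.7%), Myc, Btg2 and Ier5, and 5 fell (27.8%). Ier5 was not called in 5 of 6 fits without 1 library (adjusted p 0.0133 to 0.107). Junb had 16.2, 10.4 and 16.9 FPKM at ZT4 and 4.78, 5.99 and 4.38 FPKM at ZT16 and fell 2.88-fold (-1.34 ± 0.19, adjusted p 0.00304). The glucocorticoid target Gadd45g had 9.81, 17.6 and 3.59 FPKM at ZT4 and 25.8, 46.3 and 47.8 FPKM at ZT16, with a wide spread at ZT4, and was not called in 3 of 6 fits without 1 library (adjusted p 0.015 to 0.0686).

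Of 22 interferon-stimulated genes 1 rose and 9 fell (median -0.25), and of 21 acute-phase genes 2 rose and 8 fell. The shares lower, 40.9% and 38.1%, stood against 21.9% of all genes. Median of ratios scaling gave 2 higher and 6 lower, and 3 higher and 5 lower. Over the fits without 1 library 5 to 10 interferon-stimulated genes were lower, with 5 without mouse 2 of either time, and 5 to 8 acute-phase genes, with 5 without mouse 2 at ZT4. In those fits 1 or 2 acute-phase genes were higher, with 1 without mouse 1 of either time or mouse 2 at ZT16. The lymphocyte sums (0.396 to 0.690 FPKM at ZT16 against 0.837 to 2.00 FPKM) and neutrophil sums (0.338 to 0.362 against 0.672 to 1.74 FPKM) were lower at ZT16 as well, and their part in these counts was not tested. Usp18, which damps the interferon receptor, had 4.05, 3.45 and 3.71 FPKM at ZT4 and 1.63, 1.57 and 1.85 FPKM at ZT16 and fell 2.22-fold (-0.82 ± 0.075, adjusted p 0.000792), whereas Stat2, a subunit of the interferon-activated factor, had 10.6, 11.3 and 10.2 FPKM at ZT4 and 15.3, 15.1 and 14.8 FPKM at ZT16 and rose (0.46 ± 0.053, adjusted p 0.00174). The 3 fibrinogen chain genes, which lie together on chromosome 3, fell alike, and Fgb had 2524, 2724 and 2955 FPKM at ZT4 and 1636, 1763 and 1538 FPKM at ZT16 (-0.73 ± 0.085, adjusted p 0.00175). Of 19 cell cycle and replication genes 1 rose (5.26%) and 6 fell (31.6%), with 3 higher without mouse 1 at ZT16 and 2 without mouse 1 at ZT4. Wee1, the clock-controlled kinase that holds cells before mitosis, had 1.18, 1.41 and 1.63 FPKM at ZT4 and 4.60, 3.70 and 4.39 FPKM at ZT16 and rose 3.01-fold (1.12 ± 0.10, adjusted p 0.000741), and Mcm7, of the replicative helicase, had 5.84, 6.01 and 5.56 FPKM at ZT4 and 3.96, 4.27 and 3.69 FPKM at ZT16 (-0.45 ± 0.066, adjusted p 0.00356).

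**Figure D3:**
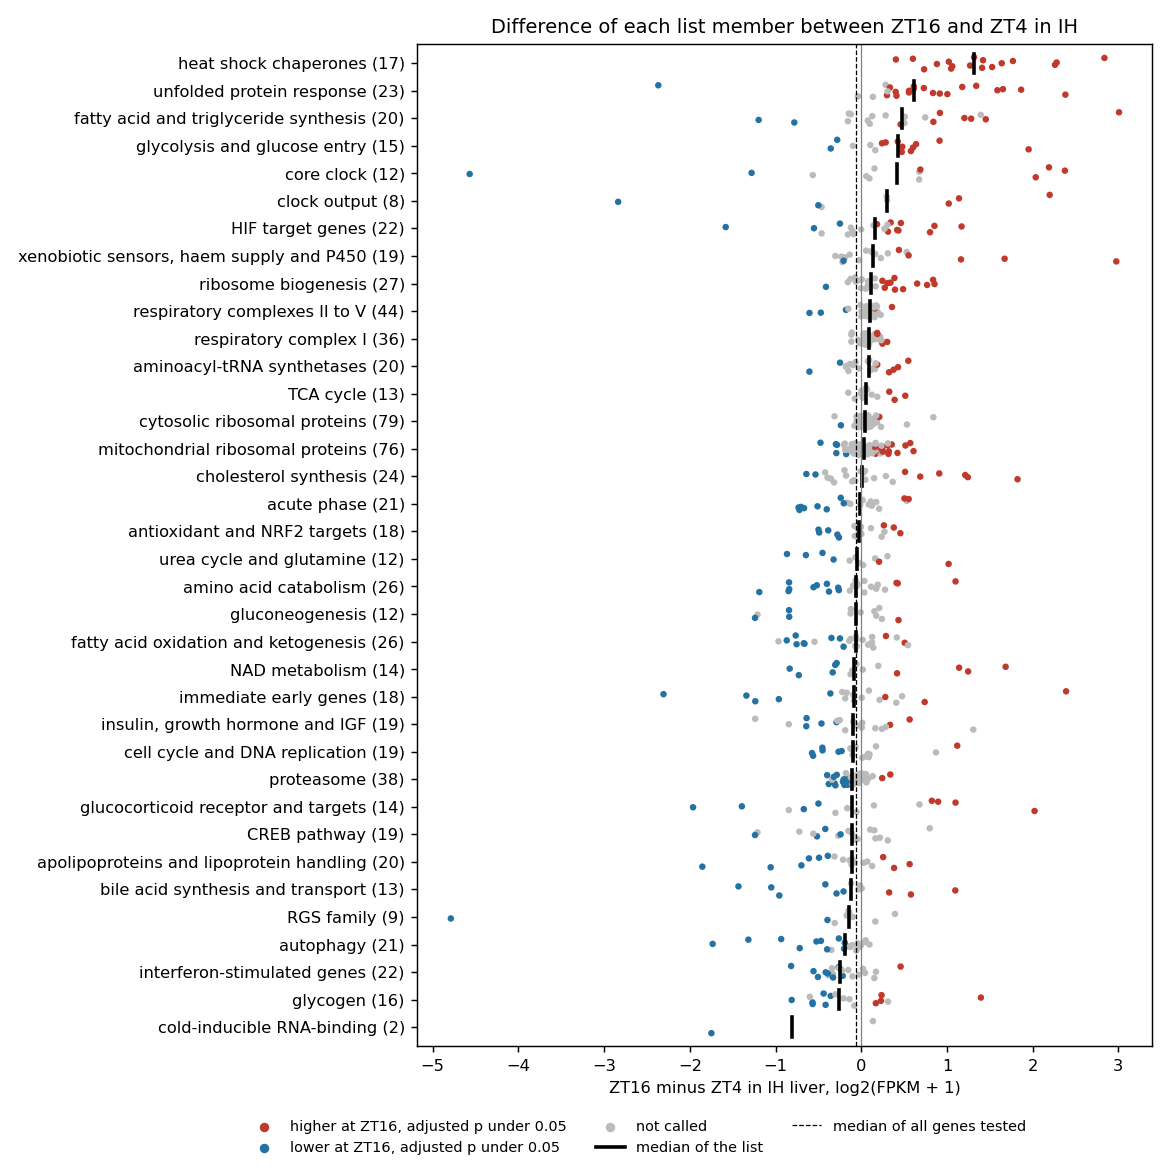
Difference between ZT16 and ZT4 in IH, on the log2(FPKM + 1) scale, for every tested member of the 36 lists (number in brackets), with genes called higher in red, called lower in blue and the rest in grey. Thick black bars are list medians, from -0.81 to 1.32, and the dashed line is the median of all genes, -0.058.

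The medians of 7 lists were below 0 as deposited and above 0 under median of ratios scaling, so that no direction is given for them as groups. These were gluconeogenesis, fatty acid oxidation, the urea cycle, amino acid catabolism, NAD metabolism, antioxidant genes and acute-phase genes, and that of NAD metabolism was above 0 under quantile normalization too.

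The control mice show what the same 12 h did without hypoxia. In normoxia 516 genes rose (3.9%) and 782 fell (5.92%) by the same test, with 3632 at an unadjusted p under 0.05. These counts moved with single libraries, from 102 to 956 higher and from 151 to 942 lower when 1 of the 6 was left out, with the most calls without mouse 3 at ZT16. The replicates were more spread there, with a median SD of 0.104 at ZT4 and 0.110 at ZT16, so that fewer calls do not show smaller differences. Saa1, the main acute-phase protein gene, was at 2357 and 2435 FPKM in mice 1 and 3 of normoxia at ZT4 and at 12912 FPKM in mouse 3 at ZT16, against 30.6 to 88.1 FPKM in the 6 IH libraries. Of the 1430 genes that rose in IH, 373 also rose in normoxia, 0 fell and 94.5% had a positive difference there, against 45.7% of all genes tested. Of the 2891 that fell in IH, 641 fell in normoxia, 1 rose and 92.7% had a negative difference, against 54.1% of all genes. The 2 conditions share no library.

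The difference between the contrasts was called for 4 genes (0.0303% of those tested), by the interaction of condition and time over the 12 libraries, 3 with a more negative and 1 with a more positive difference in IH. Among heat shock chaperones, 16 of 17 rose in normoxia as well, with a median of 1.16. Of the unfolded protein response genes 3 of 23 rose and 1 fell in normoxia, where the median was 0.09, and the smallest adjusted p of their interaction was 0.226. Mouse 2 of normoxia at ZT4 was high for these genes: Hspa5 had 251, 439 and 220.1 FPKM at ZT4 and 429, 405 and 374 FPKM at ZT16 in normoxia. For Mvd the normoxia difference was 0.081 ± 0.26, adjusted p 0.874, and its interaction had an adjusted p of 0.239. Myc had a normoxia difference of -0.82 (adjusted p 0.548), and its interaction had an adjusted p of 0.255.

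**Figure D4:**
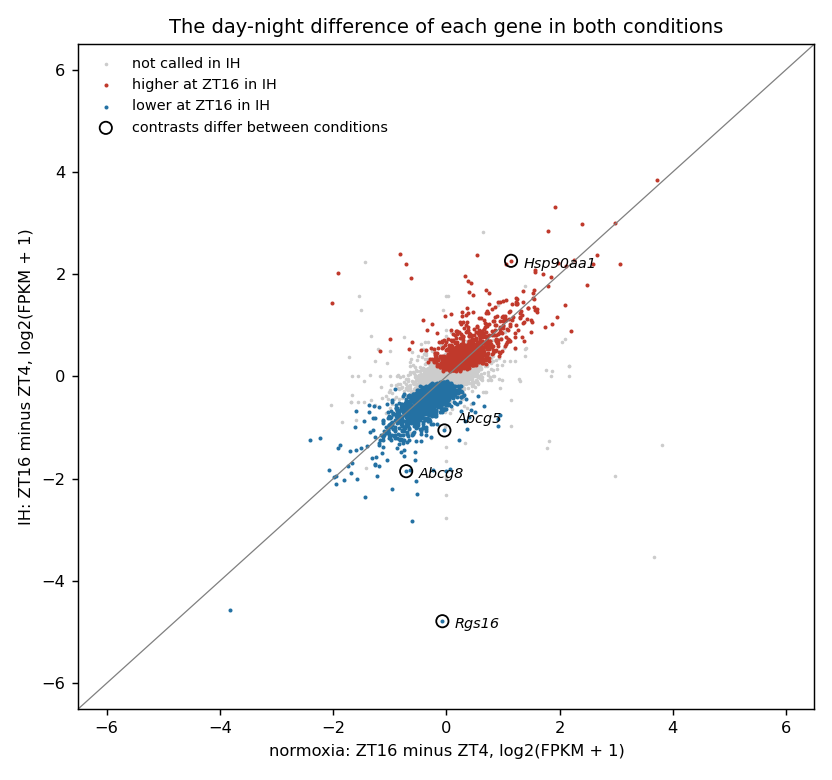
Difference between ZT16 and ZT4 of each of the 13215 genes in normoxia (horizontal) and IH (vertical), on the log2(FPKM + 1) scale, with genes called in IH coloured and the diagonal drawn for equal differences. The 4 circled genes are those whose contrasts differed between the conditions, and Rgs16 lies near 0 in normoxia and at -4.79 in IH.

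Rgs16 differed most. In normoxia it had 3.42, 1.02 and 1.58 FPKM at ZT4 and 1.59, 3.60 and 0.664 FPKM at ZT16, a difference of -0.071 ± 0.42, adjusted p 0.935, and the interaction was -4.72 ± 0.48 (adjusted p 0.00502). The values at ZT16 overlapped between the conditions, and those at ZT4 lay far apart. Rgs16 was nonetheless high in normoxia 4 h later, at 72.1 ± 20.3 FPKM at ZT8 (SD, n = 3), against 122 ± 29.1 FPKM in IH. With a pseudocount of 0.1 the interaction had an adjusted p of 0.0554, the highest over its alternatives, of which the lowest was 0.00233.

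The sterol transporter genes Abcg5 (chr17:84658234-84683011) and Abcg8 (chr17:84676302-84700333), whose proteins pair to pump cholesterol into bile, lie head to head, with overlapping annotated spans on opposite strands. As for Nr1d1, it is not known whether the quantification used strand, and sharing of reads between the 2 genes was not tested. In IH Abcg8 had 44.8, 44.3 and 36.9 FPKM at ZT4 and 10.9, 11.5 and 10.3 FPKM at ZT16 and fell 3.87-fold (-1.85 ± 0.085, adjusted p 0.000112). In normoxia it had 24.4, 24.2 and 23.7 FPKM at ZT4 and 15.0, 12.9 and 15.2 FPKM at ZT16 (-0.71 ± 0.079, adjusted p 0.00654), and the interaction was -1.14 ± 0.12 (adjusted p 0.00502). Abcg5 had 40.4, 41.3 and 35.0 FPKM at ZT4 and 18.4, 17.6 and 18.4 FPKM at ZT16 in IH and fell 2.15-fold (-1.06 ± 0.070, adjusted p 0.000334). In normoxia it had 23.4, 22.0 and 24.5 FPKM at ZT4 and 21.9, 21.4 and 24.9 FPKM at ZT16 (-0.035 ± 0.082, adjusted p 0.818), so that its times overlapped there, and the interaction was -1.02 ± 0.11 (adjusted p 0.00502). For both genes the IH mice lay above the controls at ZT4 and below them at ZT16, without overlap. At ZT8 they stood at 52.5 ± 5.09 FPKM (Abcg5) and 47.1 ± 4.24 FPKM (Abcg8) in IH against 47.5 ± 6.00 and 43.2 ± 6.13 FPKM in normoxia (SD, n = 3). RefSeq gives 2 starts for Abcg8, and the window of the other (chr17:84676052-84676351, plus strand) lies apart from that of Abcg5. One Abcg8 start is 110 bases from the Abcg5 start. The windows of this pair of starts include the same 209 bases (chr17:84682962-84683170, plus strand shown), printed because the 2 genes moved together.
Abcg5 and Abcg8: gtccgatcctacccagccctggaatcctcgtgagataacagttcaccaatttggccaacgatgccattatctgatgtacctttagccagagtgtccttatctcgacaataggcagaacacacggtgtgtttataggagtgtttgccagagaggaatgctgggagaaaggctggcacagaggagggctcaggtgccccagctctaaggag
The full Abcg5 window and both full Abcg8 windows held none of the 7 motifs searched.

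Hsp90aa1 rose in both conditions, with the larger difference in IH. In normoxia it had 79.6, 77.0 and 80.8 FPKM at ZT4 and 188, 188 and 153 FPKM at ZT16 (1.14 ± 0.10, adjusted p 0.00335), and the interaction was 1.12 ± 0.12 (adjusted p 0.00502). The IH mice lay below the controls at both times, by the larger factor at ZT4. At ZT8 both conditions were low, at 23.9 ± 6.77 FPKM in IH and 28.2 ± 1.97 FPKM in normoxia (SD, n = 3). The gene next in rank, Morf4l2, a subunit of chromatin-modifying complexes, had 28.7, 30.7 and 29.7 FPKM at ZT4 and 51.7, 48.0 and 47.3 FPKM at ZT16 in IH and a normoxia difference of 0.078 ± 0.074, adjusted p 0.539, and missed the threshold (interaction adjusted p 0.0617). Without mouse 3 of normoxia at ZT16, the one with the most Saa1, the interaction called 19 genes with a more positive and 31 with a more negative difference in IH. When the 3 normoxia libraries with Saa1 over 1000 FPKM were left out, 49 genes were called in the interaction, all 4 above among them, with adjusted p of 0.00233 for Rgs16, 0.0473 for Abcg8, 0.019 for Abcg5 and 0.0149 for Hsp90aa1. Over all alternatives the adjusted p of Abcg8 ranged from 0.00391 to 0.0473, of Abcg5 from 0.00391 to 0.0397, and of Hsp90aa1 from 0.00227 to 0.0279.

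**Figure D5:**
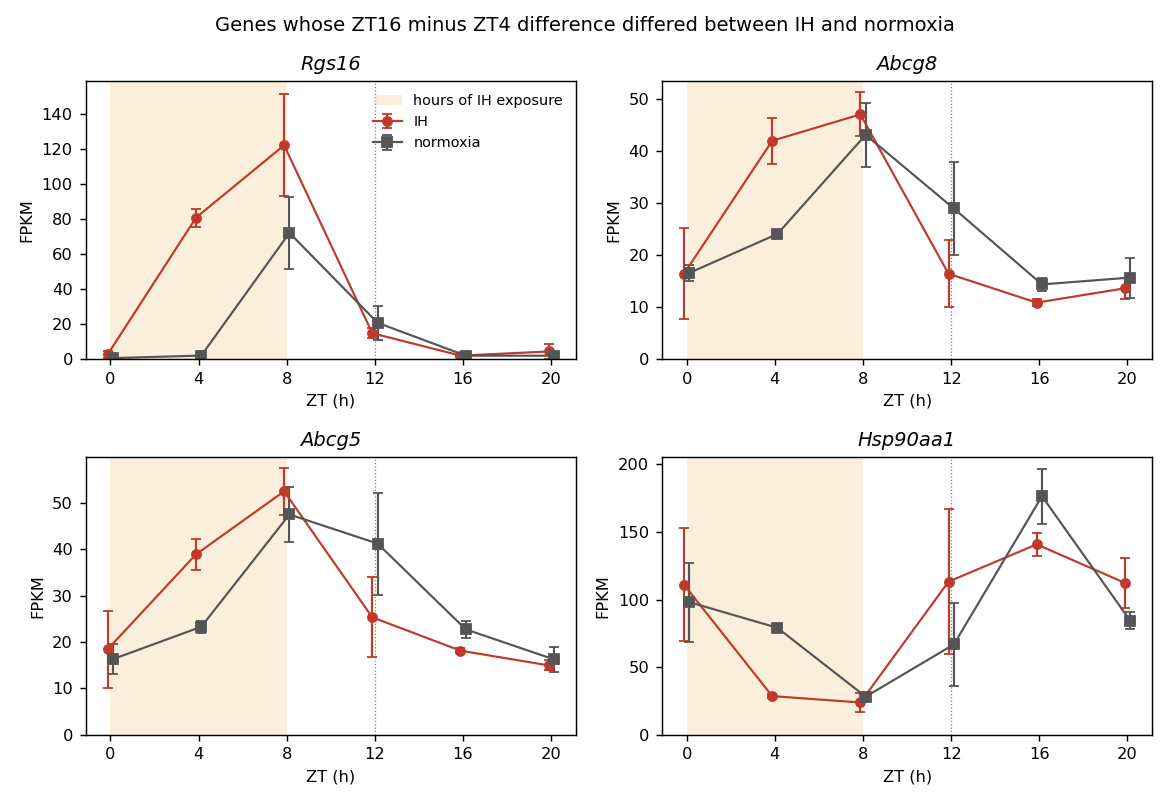
Mean FPKM ± SD (3 mice per point) of Rgs16, Abcg8, Abcg5 and Hsp90aa1 at all 6 time points in IH (circles) and normoxia (squares), with the hours of IH exposure shaded and lights off dotted. At ZT4 the conditions are far apart for each gene (80.7 against 2.01 FPKM for Rgs16), and at ZT8 both are near their peak or, for Hsp90aa1, their trough.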

How the data were processed

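Liver RNA (poly(A), stranded libraries) of 36 mice was sequenced in 12 groups of 3. The authors aligned reads with TopHat2 2.1.1 to mm10 and deposited FPKM values per symbol and library from Cufflinks 2.2.1, and the annotation is not given in the sources used here. Replicates were not pooled. Each table holds 24883 rows and 24346 symbols, of which 280 on several rows were left out. Genes averaging 0.1 FPKM or more across all 36 samples were tested as log2(FPKM + 1), without further scaling, with limma 3.58.1 (R 4.3.3, moderated test with an intensity trend, 2-sided, Benjamini-Hochberg adjusted p under 0.05), separately in IH and in normoxia, and as the interaction over 12 libraries. Errors of differences are limma's SEs. Fragment numbers are not known, so no count test or counting interval is given, and the p-values set each difference against the spread between mice. No 2 libraries held identical values.

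The members and the 36 gene lists were chosen with earlier results of these data known. Named were the 12 largest changes in each direction (called, non-overlapping, mean of at least 1 FPKM, no unnamed gene models), core clock and clock output genes, of each other list up to 3 called genes in each direction (smallest p) and, where not called, rate-limiting or defining genes, the 5 genes with the smallest interaction p and single genes named by the study. Values of some of these genes are not reported here, though they remain in all counts and medians. Members given by their difference alone were picked after their values were seen. Positions are from GENCODE vM21 (GRCm38). Promoters are from RefSeq (GRCm38.p6), and 9981 tested genes matched by symbol. Alternatives covered scaling, filter, pseudocount, trend, the source of the spread, the replicate block and each left-out library. The procedure was tested on simulated data. Python 3.11.15 with pandas 2.3.3 and matplotlib 3.10.9 was used for tables and plots.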

Additional observations from a re-analysis of the deposited data

Results flagged for a closer look

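The following 4 genes are listed because their difference between ZT16 and ZT4 itself differed between IH and normoxia in limma's interaction test over 12 libraries. Rgs16 had an interaction of -4.72 on the log2(FPKM + 1) scale, with 3 of 3 IH mice at ZT4 above all 9 other libraries. Abcg8 had -1.14 and Abcg5 -1.02, again with the 3 IH mice at ZT4 highest. Hsp90aa1 had 1.12, with the 3 IH mice at ZT4 lowest. The adjusted p was 0.00502 for each. Within IH the time of day and the hypoxic hours cannot be told apart, and the cause of these differences was not tested.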

How the results depend on the processing

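With 3 mice per group and unknown fragment numbers, the spread between mice limits what could be called. In IH, 1430 genes were higher and 2891 lower. Median of ratios scaling gave 2209 higher, the spread taken from all 36 libraries 757 higher and 1711 lower, and leaving out 1 library 943 to 1248 higher and 1780 to 2664 lower. In normoxia, where 516 were higher and 782 lower, median of ratios scaling gave 883 and quantile normalization 791 higher, and leaving out 1 library 102 to 956 higher and 151 to 942 lower. The interaction had 1 gene higher and 3 lower. It gave 3 higher with a mean of at least 1 FPKM, 7 with median of ratios scaling, 5 with quantile normalization, and 151 higher and 336 lower at a nominal p of 0.01. Leaving out 1 library gave 1 to 19 higher and 3 to 31 lower, with the highest counts without normoxia ZT16 mouse 3, and leaving out the 3 normoxia libraries with high Saa1, chosen after seeing the data, 28 higher and 21 lower. The causes of these shifts were not tested, beyond the fewer samples where libraries were left out.

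With the replicate block, IH had 1282 higher and 2621 lower and normoxia 409 and 533. The replicate numbers gave no sign of pairing. Correlations of deviations between same-numbered mice were -0.078, -0.104 and -0.049 in IH and -0.128, 0.237 and 0.305 in normoxia. Those between differently numbered mice ran from -0.006 to 0.084 in IH and from -0.371 to 0.347 in normoxia. Of the 195 genes named, 0 had a call reversed under any alternative. Genes not called could change sign when 1 library was left out, such as Cox6a1 (-0.021 to 0.019) and Ppara (-0.16 to 0.049). Median of ratios scaling cost 13 their call and gave 3 one, the replicate block cost 14, the spread of all 18 IH libraries 42 and that of all 36 libraries 71.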
